A study of Oryctolagus cuniculus with 4 samples.

Results

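The genes described here encode proteases that cut collagen and other matrix proteins, and the inhibitors that restrain them. They were the matrix metalloproteinase (MMP) genes MMP2, MMP3, MMP13 and MMP14, the tissue inhibitor of metalloproteinases (TIMP) genes TIMP1, TIMP2, TIMP3 and TIMP4, the cathepsin gene CTSK and the serine protease gene HTRA1, chosen by gene symbol. Of these 10 symbols, 9 had an entry among 20294 genes, and each of the 9 was represented by 1 transcript. TIMP2 had none and is not analysed here. Poly(A) RNA was sequenced from the semitendinosus tendon, a hamstring tendon often taken for knee ligament grafts. There were 4 tendons, 1 per animal, from New Zealand White rabbits, all female and 193 days old, and muscle had been trimmed away. The labels call the tendons intact, while the title of the series speaks of allografts and its design text of autografts. Nothing in the labels names a treatment, a genetic change or a comparison group, so the 4 tendons formed 1 group and the values below describe its level and spread.

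MMPs are zinc endopeptidases made as inactive precursors. MMP2 is a gelatinase that acts on denatured collagen and basement membrane collagen, MMP14 is a membrane-bound MMP that cuts fibrillar collagen and activates pro-MMP2, MMP13 is a collagenase, and MMP3 is a stromelysin with many matrix substrates. TIMPs bind active MMPs, and TIMP3 is held in the matrix and also inhibits several related metalloproteinases. Cathepsin K, the product of CTSK, is a cysteine protease best known from osteoclasts that cuts within the collagen triple helix, and HTRA1 is a secreted serine protease that acts on matrix proteins. In tendon, such enzymes take part in matrix turnover.

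Tendons 1 to 4 had between 19759696 and 30646052 estimated counts. No pair of libraries agreed within counting noise, with a chi-square per degree of freedom of at least 94.5 over genes. Of 12 tenocyte markers, 9 had an entry and all 9 reached a mean of 1 TPM (transcripts per 1000000, the length-corrected unit used for levels). MKX, a tendon transcription factor gene, stood at 169, 117, 90.4 and 73.8 TPM in tendons 1 to 4, and TNMD, the tenomodulin gene, at 158, 169, 31.7 and 187 TPM. A skeletal muscle list of 19 measured genes summed to 9561, 36685, 19158 and 26859 TPM, so all tendons also held muscle RNA. In whole tissue, fewer cells of a type and less RNA per cell cannot be told apart.

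Together the 9 genes took 0.262% ± 0.0223 of TPM (SD, n = 4). They fell into a high and a low tier. CTSK, MMP2, HTRA1 and TIMP3 each had a mean above 300 TPM, a level reached by 2.06% of all genes, and supplied between 92.4% and 96.2% of the summed TPM of the 9 genes in each tendon. MMP14, TIMP1 and TIMP4 followed at means of 60.9, 55.7 and 16.7 TPM, and MMP13 and MMP3 stood at 1.87 and 0.764 TPM. The order of neighbours held in all 4 tendons for CTSK over MMP2, TIMP3 over MMP14, TIMP1 over TIMP4 and TIMP4 over MMP13. For MMP2 over HTRA1, HTRA1 over TIMP3, MMP14 over TIMP1 and MMP13 over MMP3 it held in 3 of 4, so these neighbours did not differ beyond their spread.

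**Figure D1:**
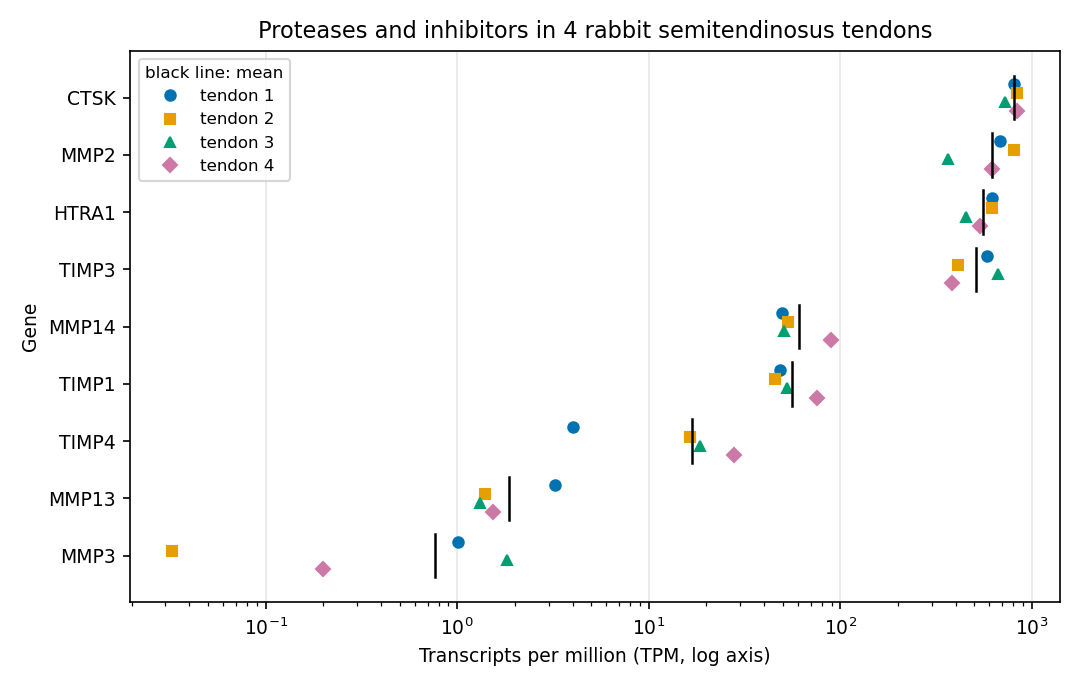
TPM on a log axis of the 9 protease and inhibitor genes in tendons 1 to 4 (symbols), with the mean of 4 as a black line. CTSK lay between 726 and 842 TPM, while MMP3 lay between 0.0326 and 1.82 TPM.

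MMP2 was the main MMP transcript. MMP2 (ENSOCUG00000006714.3, OryCun2.0 chromosome 5, 11717915 to 11744859) stood at 679, 804, 363 and 619 TPM in tendons 1 to 4 (mean 616 ± 186, SD, n = 4). Tendon 3 was the lowest, and the other 3 tendons lay within 1.30-fold of each other. MMP2 ranked 220 of 20294 genes by mean TPM and took 82.0%, 85.5%, 72.3% and 76.6% of the summed TPM of the 21 measured MMP genes. Its biological coefficient of variation (BCV), the spread between tendons beyond counting error as estimated by edgeR, was 0.315, above 83.4% of 12740 genes.

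MMP14 (ENSOCUG00000010244.3, chromosome 17, 43077647 to 43085394) was about an order of magnitude less abundant. Its levels were 49.8, 53.2, 51.0 and 89.6 TPM (mean 60.9 ± 19.2, SD, n = 4). Tendon 4 stood above the other 3, which lay within 1.07-fold of each other, and its BCV of 0.246 became 0.161 without tendon 4. Per tendon, MMP14 was 0.0735, 0.0663, 0.141 and 0.145 times MMP2. The ratio was higher in tendons 3 and 4, through the low MMP2 of tendon 3 and the high MMP14 of tendon 4.

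MMP13 and MMP3, the collagenase and stromelysin genes of the rule, were scarce. MMP13 (ENSOCUG00000002481.2, chromosome 1, 113615791 to 113627810) had 3.24, 1.40, 1.31 and 1.54 TPM, from 100, 74, 62 and 80 counts. Tendon 1 was the highest, and its 95% exact Poisson interval of 2.64 to 3.94 TPM did not meet those of the other 3 tendons, which reached at most 1.92 TPM. MMP3 (ENSOCUG00000029337.1, chromosome 1, 113716113 to 113724650) had 18, 1, 50 and 6 counts, or 1.00, 0.0326, 1.82 and 0.199 TPM. Tendons 1 and 3 were high and tendons 2 and 4 low. In tendon 3 the interval for MMP3 was 1.35 to 2.40 TPM, overlapping that of tendon 1, 0.595 to 1.59 TPM, and lying above those of tendons 2 and 4, which reached at most 0.433 TPM. These intervals cover counting error only, and PCR copies were not removed by molecular identifiers.

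Both lie in a cluster of MMP genes on chromosome 1, and the whole cluster was scarce. Between 113615791 and 114013979, a span of 398 kb, the table placed 9 MMP genes in the order MMP13, MMP12, MMP3, MMP1, MMP10, MMP8, MMP27, MMP20 and MMP7, all on the plus strand. MMP13 and MMP12, the macrophage elastase gene, were the only ones to average 1 TPM. MMP10, MMP8, MMP20 and MMP7 had 0 counts in all 4 tendons, and MMP27 had at most 3. Over all genes, 63.0% averaged 1 TPM or more and 14.5% were at 0 in all 4 tendons.

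MMP1, the interstitial collagenase gene next to MMP3 in this cluster, also peaked in tendon 3. It had 5, 10, 69 and 5 counts, or 0.250, 0.293, 2.25 and 0.149 TPM. Its interval in tendon 3, 1.75 to 2.85 TPM, lay above those of the other tendons, which reached at most 0.584 TPM. MMP13, at the start of the cluster, did not peak in tendon 3. Its interval there, 1.01 to 1.68 TPM, overlapped those of tendons 2 and 4. FOS, a subunit of the AP-1 factor known to act on MMP1 and MMP3, had 19.4, 11.3, 21.5 and 9.22 TPM in tendons 1 to 4, and was high in tendons 1 and 3, where MMP3 was high. Other AP-1 genes differed, since JUN was highest in tendon 2, where MMP3 was lowest, and FOSB was lowest in tendon 3, where MMP3 was highest. Their part in the MMP3 values was not tested. The cytokine gene IL1B, known to induce both proteases, was 0 in tendons 1 and 2 and 0.0837 and 0.687 TPM in tendons 3 and 4.

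Outside the cluster, MMP15, MMP16 and MMP11 came next after MMP14, and the rest averaged at most 4.98 TPM. Of 19 other MMP symbols, 17 had an entry, 7 averaged 1 TPM or more, and 5 (the 4 above and MMP26) had no count, where 3 counts would correspond to between 0.0817 and 0.38 TPM. MMP15, MMP16, MMP17 and MMP24 are membrane MMP genes like MMP14. MMP15 had 28.5, 30.5, 27.1 and 31.7 TPM and was nearly even, although between 76.6% and 88.8% of it came from a 792-base transcript model whose span lies inside that of a longer one, so its length-corrected level is uncertain. MMP16 had 41.4, 23.4, 23.4 and 19.6 TPM and was highest in tendon 1. MMP11, the stromelysin-3 gene, had 14.5, 16.5, 19.4 and 26.9 TPM and was highest in tendon 4, as MMP14 was. The gelatinase gene MMP9 had at most 1.45 TPM, in contrast to the other gelatinase gene, MMP2. MMP28, MMP17 and MMP19 had means of 4.98, 3.17 and 2.04 TPM, and MMP21 and MMP24 stayed under 1 TPM in all tendons.

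**Figure D2:**
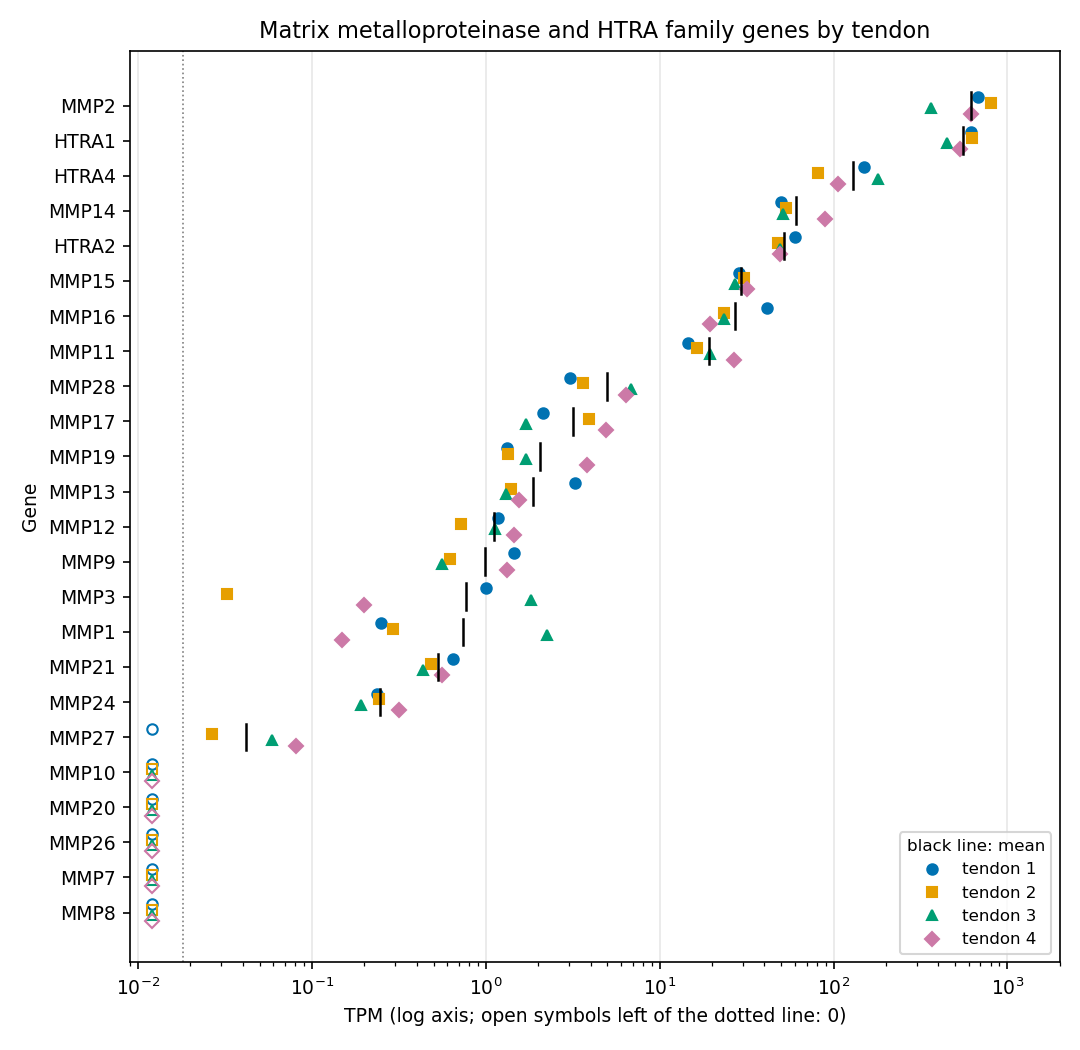
TPM on a log axis of the MMP and HTRA family genes in tendons 1 to 4 (symbols), with the mean as a black line and values of 0 drawn as open symbols left of the dotted line. MMP2 and HTRA1 stood highest, MMP1 and MMP3 peaked in tendon 3, and MMP7, MMP8, MMP10, MMP20 and MMP26 were at 0 throughout.

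TIMP3 was the main measured inhibitor transcript. TIMP3 (ENSOCUG00000008310.3, chromosome 4, 88307960 to 88362257) stood at 581, 412, 662 and 381 TPM (mean 509 ± 135, SD, n = 4). Tendons 1 and 3 were high and tendons 2 and 4 low, and tendon 3 was 1.74 times tendon 4. Its BCV was 0.260, and it took between 78.6% and 91.7% of the summed TPM of the 3 measured TIMP genes. HTRA4 and MMP3 were also higher in tendons 1 and 3 than in tendons 2 and 4, but both were lowest in tendon 2.

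TIMP1, which encodes a soluble inhibitor of most MMPs, was scarcer. TIMP1 (ENSOCUG00000010718.3, chromosome X, 32653174 to 32659127) stood at 48.5, 45.5, 53.0 and 75.9 TPM (mean 55.7 ± 13.8, SD, n = 4). Tendon 4 was the highest, as it was for MMP14, and the other 3 tendons lay close together. Its BCV of 0.214 was above 54.7% of genes. TIMP1 was between 0.0801 and 0.199 times TIMP3 within a tendon.

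TIMP4, an inhibitor gene known for expression in heart and skeletal muscle and fat, varied most among the TIMP genes. TIMP4 (ENSOCUG00000015952.1, chromosome 9, 11767817 to 11773763) had 27, 189, 192 and 317 counts, or 4.00, 16.4, 18.6 and 27.95 TPM. Tendon 1 was the lowest, and its 95% exact Poisson interval of 2.64 to 5.82 TPM lay below that of tendon 2, 14.1 to 18.9 TPM. The highest tendon was 6.98 times the lowest, and 1.71 times without tendon 1. Its BCV of 0.550 was above 97.9% of genes and became 0.260 without tendon 1. The interval of tendon 3, 16.0 to 21.4 TPM, overlapped that of tendon 2, so the order of tendons 2 and 3 is unsure. An adipocyte list of 7 measured genes, led by ADIPOQ and FABP4, summed to 253, 409, 562 and 1071 TPM, in the same order of tendons as the TIMP4 values. An endothelial list of 6 measured genes rose in that order too, at 162.5, 208, 281 and 284 TPM. All 7 adipocyte genes were highest in tendon 4, and 6 of 7 were lowest in tendon 1. The muscle list was also lowest in tendon 1, for 18 of 19 genes. Its sum was highest in tendon 2, as were 10 of its genes, while 9 were highest in tendon 4, as TIMP4 was. Fast-fibre genes of that list peaked in tendon 4 instead, with the myosin gene MYH2 at 240.3 TPM there and at most 1.01 TPM elsewhere. The part of fat or muscle RNA in the TIMP4 values was not tested.

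CTSK had the highest mean of the 9 genes and the smallest fold between tendons in TPM. CTSK (ENSOCUG00000011090.2, chromosome 13, 41346878 to 41360274) stood at 807, 842, 726 and 838 TPM (mean 803 ± 53.9, SD, n = 4) and ranked 167 of 20294 genes. Its highest tendon was 1.16 times its lowest, and 14.5% of the genes averaging 10 CPM or more (counts per 1000000) had a smaller fold. In CPM scaled by TMM, edgeR's correction for library composition, the fold was 1.27. Its BCV of 0.20 was close to the median of 0.205 over 12740 genes. COL1A1, the chain of type I collagen that cathepsin K cuts, had 15218, 8838, 3672 and 5354 TPM in the same tendons, a 4.14-fold range.

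Osteoclasts are the cells best known for CTSK. Of 11 osteoclast markers, 9 had an entry, and the summed list ran from 42.9 to 60.3 TPM, mostly from NFATC1, a transcription factor gene also used outside osteoclasts, at 33.9 to 52.9 TPM. TNFRSF11A, the RANK receptor gene, was the other marker to average 1 TPM, at 4.85 TPM, and CA2, the carbonic anhydrase II gene, averaged 0.773 TPM. The fusion genes DCSTAMP and OCSTAMP, the calcitonin receptor gene CALCR, the proton pump subunit gene ATP6V0D2 and the receptor gene OSCAR were each at most 0.286 TPM in any tendon. DCSTAMP and OCSTAMP were both at 0 in tendon 2. ACP5 and ITGB3 had no entry. Macrophage markers, 11 measured genes, summed to 99.6, 80.9, 193 and 262 TPM, a 3.23-fold range. The part of either cell type in the CTSK values was not tested.

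HTRA1 (ENSOCUG00000013478.3, chromosome 18, 69313707 to 69342537) stood at 621, 623, 451 and 534 TPM (mean 557 ± 81.9, SD, n = 4). Tendons 1 and 2 were nearly equal and tendon 3 was the lowest, at a 1.38-fold range and a BCV of 0.225. HTRA1 was 0.770, 0.740, 0.622 and 0.638 times CTSK. In its family, HTRA4 had 149.9, 81.4, 180.2 and 107 TPM, a mean of 129.5 ± 44.1, and HTRA2, which encodes a mitochondrial protease, had 60.4, 47.8, 49.4 and 49.2 TPM. HTRA4 was highest in tendon 3, where HTRA1 was lowest. HTRA3 had no entry.

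Ratios within a tendon compare the genes free of its scaling. Of 18 ratios listed, 15 could be computed, and 12 of these stayed above 1 or stayed below 1 in every tendon. With 4 tendons the exact two-sided sign-flip permutation test cannot give a p below 0.13, so no ratio could pass 0.05, and after Benjamini-Hochberg adjustment over 15 ratios the smallest adjusted p was 0.156. CTSK was 1.19, 1.05, 2.00 and 1.35 times MMP2, with a mean log2 ratio of 0.44 ± 0.40 (SD, n = 4; exact permutation test, p = 0.13, adjusted p = 0.156). In CPM, which does not correct for the longer MMP2 transcript, this ratio turned to a mean log2 of -0.94. RECK, a membrane-anchored MMP inhibitor gene, was 1.04, 0.704, 0.678 and 0.351 times MMP14, lowest in tendon 4 (mean log2 ratio -0.63 ± 0.65; exact permutation test, p = 0.25, adjusted p = 0.288), and its mean turned to 0.50 in CPM.

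The scarcer genes stayed far below their abundant relatives. TIMP1 was 0.0715, 0.0567, 0.146 and 0.123 times MMP2, and TIMP4 was 0.00706, 0.0400, 0.0282 and 0.0735 times TIMP3. MMP13 was between 0.00187 and 0.00492 times MMP2, and MMP3 between 0.000165 and 0.00529 times. All 4 ratios were below 1 in all 4 tendons (exact permutation test, p = 0.13, adjusted p = 0.156 for each). MMP14 was between 0.963 and 1.18 times TIMP1, and both were highest in tendon 4. In CPM MMP14 was below TIMP1 in all 4 tendons. This pair was not among the listed ratios. It was taken because these genes are neighbours by mean TPM, so values close to 1 follow partly from that choice.

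The balance of TIMP3 and MMP2 turned over in tendon 3. TIMP3 was 0.855, 0.512, 1.82 and 0.617 times MMP2 in tendons 1 to 4, with a mean log2 ratio of -0.26 ± 0.81 (SD, n = 4; exact permutation test, p = 0.50, adjusted p = 0.50) and 0.10 in CPM. Summed over families, the 3 TIMP genes had 0.765, 0.504, 1.46 and 0.601 times the TPM of the 21 MMP genes, so MMP transcripts were in excess in tendons 1, 2 and 4 and TIMP transcripts in tendon 3. Without length correction, TIMP transcripts were also ahead in tendon 1, at 1.03, and the ratio was 2.08 in tendon 3. TIMP2 is not part of these sums, and transcript ratios say nothing of active enzyme. HTRA1 showed the same turn in TPM, at 0.914, 0.775, 1.24 and 0.864 times MMP2. In CPM HTRA1 was below MMP2 in all 4 tendons, with a mean log2 ratio of -1.22.

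Relative to type I collagen, all 4 abundant genes were lowest in tendon 1. CTSK was 0.0530, 0.0953, 0.198 and 0.156 times COL1A1 in tendons 1 to 4, and TIMP3 was 0.0382, 0.0466, 0.180 and 0.0713 times. MMP2 was 0.0446, 0.0910, 0.0989 and 0.116 times COL1A1, and HTRA1 was 0.0408, 0.0705, 0.123 and 0.0998 times. The ratios share COL1A1 as denominator, which was highest in tendon 1 and lowest in tendon 3.

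**Figure D3:**
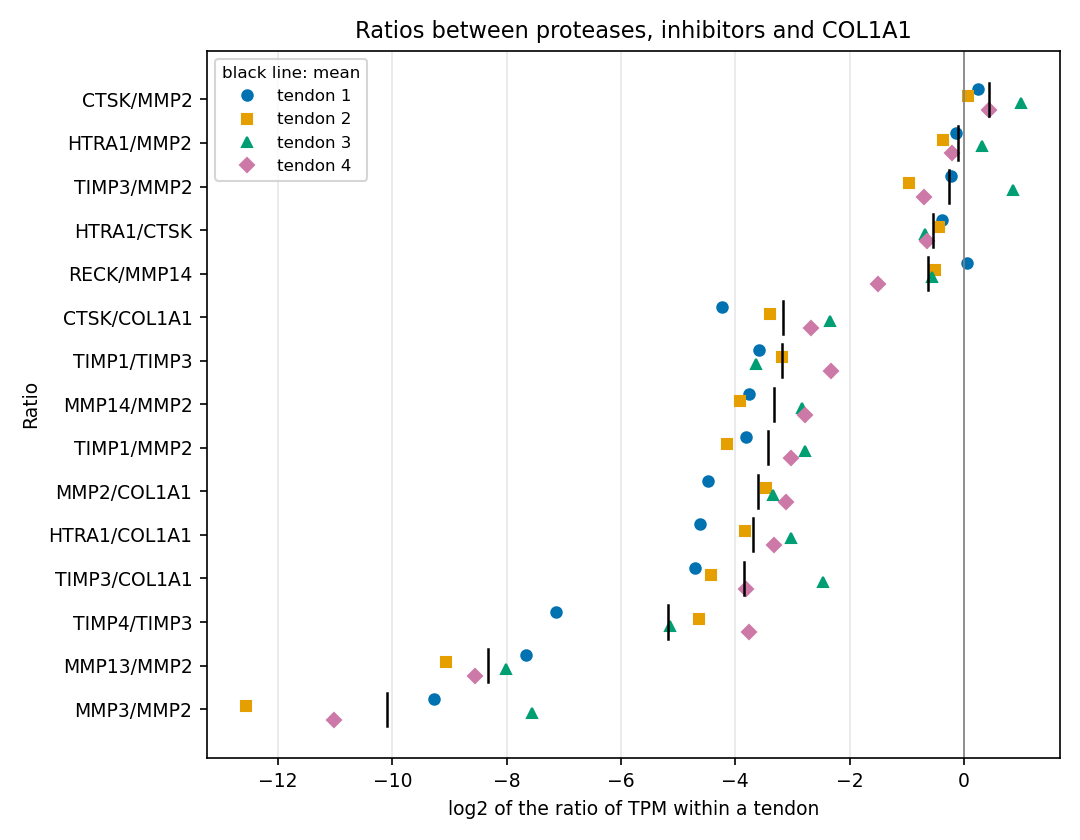
The log2 ratio of TPM within each of tendons 1 to 4 (symbols) for 15 pairs of genes, with the mean as a black line and a vertical line at equal levels. CTSK/MMP2 lay above equality in all 4 tendons, TIMP3/MMP2 and HTRA1/MMP2 only in tendon 3, and RECK/MMP14 only in tendon 1.

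Between tendons, MMP2 had the widest range of the abundant genes. Of the 9 genes, 6 averaged 10 CPM or more, and 1 of these, MMP2, had a range of 2-fold or more (16.7%), beside 11.1% of the 8780 genes at that level. A count of 1 in 6 is near this background. A range of 1.5-fold was reached by 4 of 6, MMP2, TIMP3, MMP14 and TIMP1, beside 32.9% of the 8780. Without tendon 2 no gene of the 6 reached 2-fold, beside 8.11% of all genes at that level, and without tendon 3 none did, beside 9.88%. The median fold of the 6 genes was 1.70, beside 1.35 for the 8780. The 3 genes under 10 CPM, TIMP4, MMP13 and MMP3, all exceeded 2-fold, but their counts are low, and with no minimum 4 of 9 genes passed, beside 48.6% of all genes.

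MMP2, CTSK and HTRA1 shared their highest and lowest tendon. All 3 were highest in tendon 2 and lowest in tendon 3, a pattern of 3.69% of the 8780 genes. This order also held in CPM scaled by TMM, where CTSK had 674, 800, 628 and 705, HTRA1 619, 706, 466 and 536, and MMP2 1477, 1987, 817.5 and 1354. For CTSK the differences behind the order were small. In TPM the highest tendon was a near tie for HTRA1, at 623 in tendon 2 and 621 in tendon 1. The same held for CTSK, at 842 in tendon 2 and 838 in tendon 4. The pattern was read from these same values, so its share of all genes is description only. TIMP3 was highest in tendon 3 and lowest in tendon 4, as were 3.62% of the 8780 genes, and MMP14 and TIMP1 were highest in tendon 4, as were 27.6%.

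**Figure D4:**
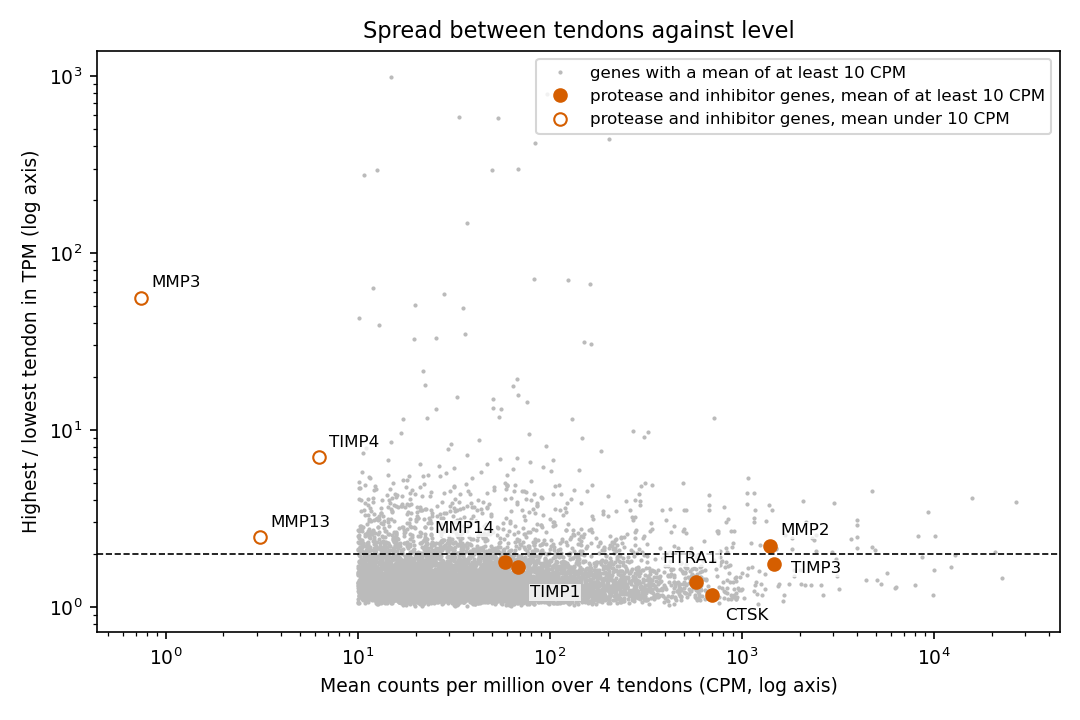
The fold between the highest and the lowest tendon in TPM against the mean CPM, both on log axes, for the 8780 genes averaging 10 CPM or more (grey) and the 9 protease and inhibitor genes (orange, open where the mean was under 10 CPM); the dashed line marks 2-fold. MMP2 lay above the line at 2.21-fold and CTSK near the lower edge at 1.16-fold.

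Genes that activate, inhibit or clear MMPs were present alongside. Of 23 symbols, 20 had an entry, 17 averaged 1 TPM or more, and 4 of 14 with at least 10 CPM had a 2-fold range, beside 11.1% of the 8780 genes at that level. THBS1 and THBS2, thrombospondins that bind MMP2, led with LRP1, the endocytic receptor that clears MMPs, and CAV1, the caveolin gene. THBS2 had 418, 309, 139 and 306 TPM and was lowest in tendon 3, as MMP2 was. PLAU, the urokinase gene whose product starts plasmin-driven MMP activation, had 32.4, 39.5, 53.2 and 85.9 TPM and was highest in tendon 4, as MMP14 and TIMP1 were. SERPINE2, an inhibitor of urokinase and thrombin, and PCSK6, a proprotein convertase gene, also had a 2-fold range, with means of 21.5 and 14.3 TPM, while FURIN, the convertase gene for pro-MMP14, was even at 25.0 to 29.7 TPM. CLDN5, an endothelial claudin gene, had a mean of 52.6 TPM. PLG, the plasminogen gene, was at 0 in all 4 tendons, and BSG, NID1 and TFPI2 had no entry.

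Genes for collagen uptake and cysteine protease inhibition had 13 of 16 entries, all averaging 1 TPM or more, and 2 of 12 with at least 10 CPM had a 2-fold range, near the 11.1% of the 8780: the collagen-binding integrin ITGA2 and ITGAV. ITGB1, the shared integrin beta chain, led at 619 ± 62.6 TPM (SD, n = 4). MRC2, the receptor that takes up collagen fragments, had 269, 225, 195 and 234 TPM, and CSTB, a cystatin gene, had a 1.12-fold range at 188, 193, 173 and 172 TPM. The lysyl hydroxylase PLOD1, the collagen receptor DDR2 and the fibroblast protease FAP had means of 177, 77.0 and 61.2 TPM, and the cystatin gene CST6 21.5 TPM with its highest value in tendon 4. CST3, the cystatin C gene, had no entry.

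A list of transcription factors, cytokines and cytokine receptors known to act on MMP genes held 25 symbols, and 18 had an entry. CTGF and CCN2 are symbols of the same gene, entered here as CTGF. Of 15 genes with at least 10 CPM, 3 had a 2-fold range (FOS, FOSL2 and IL6R), beside 11.1% of the 8780. CTGF led at 444 ± 103 TPM (SD, n = 4), followed by JUN at 107 ± 8.26 TPM and TGFB3 at 71.3 ± 20.8 TPM, with TNFRSF1A, NFKB1 and ETS2 next. TGFB3, a cytokine gene known to act on TIMP expression, was highest in tendon 4 at 99.8 TPM. Of 11 measured substrate genes, 6 had a 2-fold range (COL1A1, COL1A2, COL3A1, COL2A1, DCN and FMOD), beside 11.1% of the 8780, and THBS4 and FN1 did not reach it.

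Markers of other cells moved between the tendons as well. All 7 macrophage markers with at least 10 CPM had a 2-fold range, beside 11.1% of the 8780 genes. Of these 7, 6 were highest in tendon 4, beside 27.6% of the 8780. At the same level, all 4 adipocyte genes and the 1 bone gene, SPP1, were highest there too. So were 2 of the 6 protease and inhibitor genes and 2 of the 3 other MMP genes at that level. Of the 14 genes at that level that activate, inhibit or clear MMPs, 2 were highest in tendon 4. The defining macrophage genes CSF1R and CD68 had 36.2 and 35.2 TPM in that tendon. Endothelial markers, 6 measured genes, summed to between 162.5 and 284 TPM, and pericyte and smooth muscle markers to between 472.5 and 606 TPM. Of 8 neutrophil markers, 5 had an entry and summed to between 4.92 and 8.68 TPM, with S100A8 and S100A9 averaging over 1 TPM and MMP8 at 0 in all tendons. The cartilage list summed to 890 TPM in tendon 1, where MMP13 was highest, and to 319 to 493 TPM in the others, mostly through the collagen genes COL11A2 and COL2A1. Of its 7 measured genes, 4 were highest in tendon 1, while SOX9 and COL9A1 peaked in tendon 3 and COL10A1 was lowest in tendon 1. The share of all genes highest in tendon 1 was not computed. The part of these cells in the protease values was not tested.

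**Figure D5:**
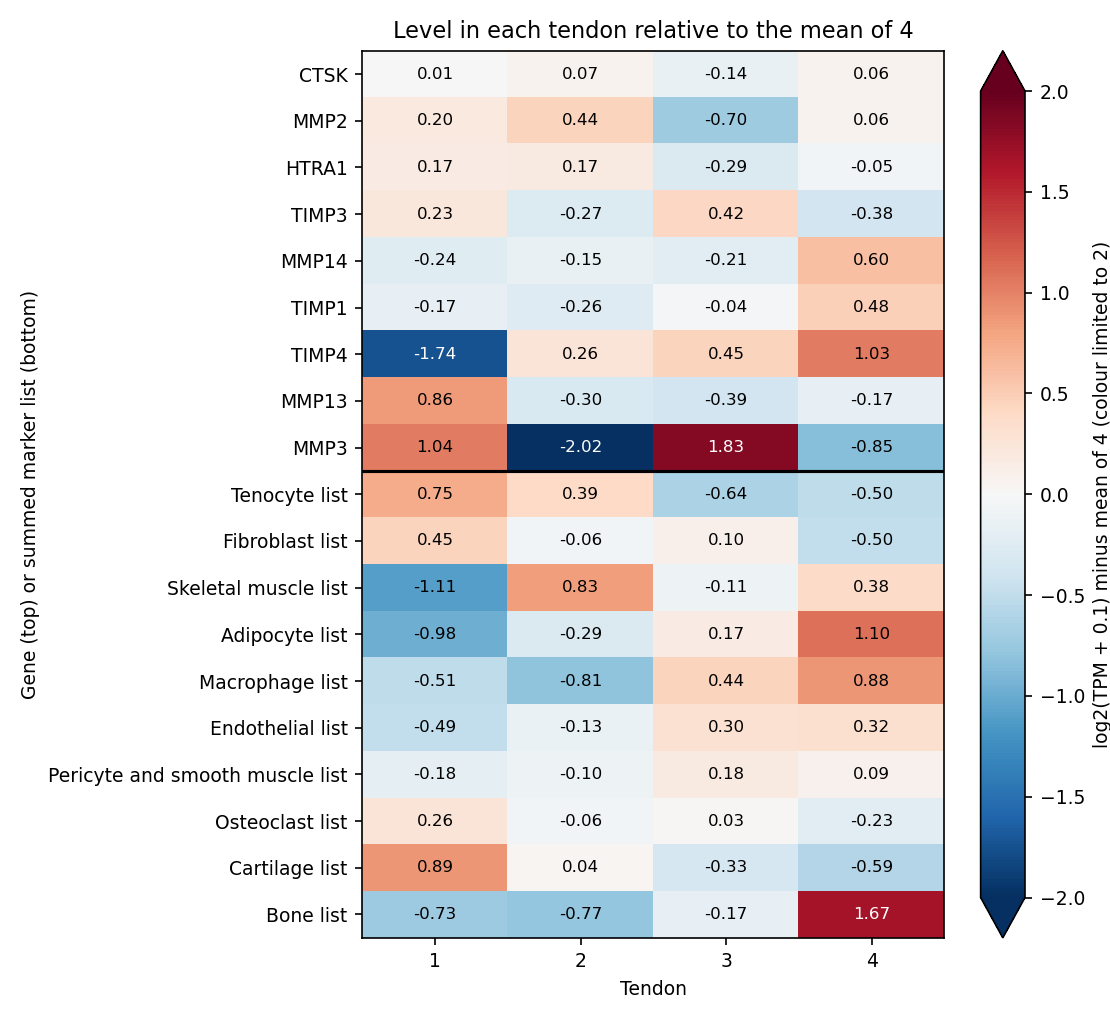
The log2(TPM + 0.1) in tendons 1 to 4 minus the mean of the 4 tendons, for the 9 genes (top) and the summed TPM of 10 marker lists (bottom); numbers give each value and colour is limited to 2 in each direction. CTSK stayed between -0.14 and 0.07, TIMP4 ran from -1.74 to 1.03, and the adipocyte list from -0.98 to 1.10.

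Genes with the most similar pattern were sought for the genes with a 2-fold range, by the root mean square difference of centred log2(TPM + 1) over 4 tendons among genes with a symbol that averaged 10 TPM or more. For MMP2 these were CHPF at 0.0699, HBEGF at 0.0991 and DKK3 at 0.108, and 26 of 7006 genes lay within 0.2. CHPF, a chondroitin polymerising factor gene, had 141, 173, 83.1 and 125 TPM. For TIMP4 they were HSPB3 at 0.183, AMPD1 at 0.193 and ASB5 at 0.196, among 4 genes within 0.2. HSPB3, a small heat shock protein gene, had 12.9, 54.8, 44.3 and 69.7 TPM. AMPD1, the muscle AMP deaminase gene, had 7.97, 26.0, 25.0 and 36.1 TPM. Like TIMP4, all 3 were lowest in tendon 1 and highest in tendon 4. The adipocyte and muscle lists hold only chosen symbols, so the absence of these 3 genes from both says nothing of their tissue. For MMP3 they were PCOLCE2 at 0.12, SOX9 at 0.134 and KLF4 at 0.158, with 10 genes within 0.2. PCOLCE2, a procollagen C-proteinase enhancer gene, had 302, 192, 435 and 185 TPM. For MMP13, PLCL1, ST8SIA1 and THBS1 came first, but 492 genes lay within 0.2, and the added 1 TPM compresses the profiles of MMP13 and MMP3 at their low levels.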

How the data were processed

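Whole tendons were ground frozen, and RNA with an integrity number above 6 and a DV200 (share of long fragments) above 50% went into TruSeq poly(A) libraries, per the labels' protocols. The authors deposited estimated counts per transcript, 1 column per tendon, with lengths in bases and coordinates. kallisto 0.42.4, bcl2fastq, FastQC and OryCun2.0 are named in the submitters' processing notes without their roles; the annotation release, filters and strand use are not given in the sources used here. Reads shared by overlapping or similar genes may be split between them.

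TPM were computed from the deposited estimated counts and annotated lengths and summed per gene; CPM used library totals, and 3 counts corresponded to between 0.0979 and 0.152 CPM. Counts were rounded for edgeR 4.0.16 (R 4.3.3; TMM, intercept alone, at least 1 CPM in at least 2 tendons), and the gene-wise BCV was shrunk towards the trend over genes. Ratios used a pseudocount of 0.1 TPM and the exact two-sided sign-flip permutation test. Each tendon was 1 replicate, and p-values measure only the spread between these 4 tendons. On simulated data, a BCV of 0.2 set for every gene was recovered as a common BCV of 0.1996 over 12750 genes. It was 0.2054 and 0.2214 with some genes raised 2-fold and 4-fold in 1 tendon. The gene-wise BCV reported here were not checked in this way. DESeq2 1.42.0 size factors were an alternative. Other steps ran in Python 3.11.15 with scipy 1.17.1.

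The genes and lists were chosen with earlier results of these data known. Named were the 9 genes, all other MMP and HTRA genes with an entry, up to 6 genes per list by mean TPM with those of at least 10 TPM and a 2-fold range, the 3 nearest patterns, and genes behind counts of 5 or fewer; RECK, FURIN, FOSB, IL1B, PLG and the single markers of other cells were added after their values were seen. No sequences were used here.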

Additional observations from a re-analysis of the deposited data

Results flagged for a closer look

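Of 95 levels, ratios and list shares, 8 had 1 tendon apart from the other 3 at the 95% limit of Dixon's ratio. This ratio is the gap to the nearest tendon over the whole range. Chance would give about 4.75 if the values were normal and independent. The 95 values share genes, so 8 is not read as an excess. MMP14 stood apart in tendon 4 (ratio 0.914), at 89.6 TPM against 49.8 to 53.2 TPM. MMP19 did so in the same tendon (0.853), at 3.81 TPM against 1.33 to 1.70 TPM. MMP1 stood apart in tendon 3 (0.932), at 2.25 TPM against 0.149 to 0.293 TPM. MMP13 stood apart in tendon 1 (0.881), at 3.24 TPM against 1.31 to 1.54 TPM. HTRA2 was also highest in tendon 1 (0.873), at 60.4 TPM against 47.8 to 49.4 TPM, as was THBS1 (0.896), at 4311 TPM against 2256 to 2470 TPM. THBS1 carries the list of MMP activators, inhibitors and clearance genes, whose share was apart in tendon 1 too (0.920, 0.589% of TPM against 0.342% to 0.361%). The bone list was apart in tendon 4 (0.883), at 0.0586% of TPM against 0.0108% to 0.0164%, carried by SPP1, the osteopontin gene, at 522 TPM against 57.8 to 119.8 TPM, while BGLAP, the osteocalcin gene, had 52.4 TPM against 37.9 to 42.6 TPM.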

How the results depend on the processing

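Alternatives were another unit (CPM), other pseudocounts, lengths, scalings, filters and denominators, and each tendon left out in turn. Of 135 alternative ratio values, 132 kept their direction and 3 reversed, all in CPM, which leaves out the transcript lengths: TIMP3/MMP2 to a mean log2 of 0.10, CTSK/MMP2 to -0.94 and RECK/MMP14 to 0.50. No ratio could pass the test under any alternative with 4 tendons or fewer. The count of genes with a 2-fold range, 1 of 6, became 4 of 6 at 1.5-fold (beside 32.9% of all genes), 4 of 9 with no minimum and 3 of 8 with at least 1 CPM (beside 20.7%), and lay between 0 and 1 with each tendon left out. The share of the 9 genes was 0.429% in CPM. Mean levels kept within 1 SD of the reported value in 53 of 54 alternatives, the exception being CTSK at 906 TPM without mitochondrial genes in the denominator. Folds and BCV moved by over 1.5 times in 7 of 63 and 2 of 48 alternatives, all with a tendon left out. MMP2 fell to 1.30-fold without tendon 3, MMP14 to 1.07-fold without tendon 4 and MMP13 to 1.18-fold without tendon 1. MMP3, with 1 count in tendon 2, has no dependable fold. No paired analysis was possible because the labels give 1 group.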
